A study of Mus musculus with 9 samples.

Results

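The genes described here are those for potassium, sodium, calcium and chloride channels in mouse calf muscle, chosen by symbol alone. They carry the symbols Kcn (potassium), Scn with a number and a or b (sodium), Cacna1, Cacna2d, Cacnb and Cacng (calcium) and Clcn (chloride), with Cacna1s, the calcium channel pore of the muscle fibre, set aside as a partner gene. The rule took 140 of the 55487 genes in the deposited tables. It uses no measured value, but it was chosen with earlier results of these data known. RNA was sequenced from gastrocnemius, a mixed calf muscle, of male C57BL/6 mice whose age the series text gives as 8 weeks, while the study's methods add further weeks of housing, so they were older when immobilized. Dis is the leg held still for 7 days in a thermoplastic bandage, Con is the free opposite leg of immobilized mice, and NC is muscle of mice that were left untreated, with 3 samples in each group. Con shares its animals with Dis, so it is not an untreated control, and the labels do not say which Con and Dis samples came from 1 mouse. The study's methods name another leg muscle as the RNA source, and the series text differs from the sample labels on whether Con was immobilized, so groups follow the sample labels. Nothing in the labels says whether a sample is 1 animal or a pool.

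Ion channels set the voltage of the fibre membrane and carry the signal to contract. In a muscle fibre the sodium channel Nav1.4, made from Scn4a, fires the action potential, the chloride channel ClC-1, made from Clcn1, holds the membrane at rest, and potassium channels return it to rest and let it respond to the energy state of the cell. The dihydropyridine receptor, a calcium channel built of Cacna1s with alpha2delta, beta and gamma subunits, senses the voltage and opens calcium release inside the fibre. Immature and denervated fibres are known for other channels, among them Kcnn3 (SK3).

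Values are TPM, a transcript abundance that sets each gene's reads against its length and scales every sample to the same total. They hold no read totals, so sequencing depth is unknown and no counting error is given. The 8 muscle fibre marker genes, among them Acta1 and Ckm, summed to between 110000 and 129800 TPM in all 9 samples, and the 5 neuron markers to at most 0.157 TPM. The fibre sum hides 2 markers that fell against Con, Myh2 (log2 fold change −1.92, adjusted p = 0.00547), a myosin of fast oxidative fibres, and Mb, myoglobin (−1.06, adjusted p = 0.0308), and Myh2 also fell against NC (−1.14, adjusted p = 0.0266). Dis sample 2 stood apart from the other samples. Its summed macrophage markers were 154.0 TPM against 17.2 and 23.7 TPM in the other Dis samples, 31.0 to 43.2 in Con and 17.0 to 20.9 in NC. Mitochondrial genes took 13.8% of its TPM against 19.3% to 23.4% elsewhere, and its median-ratio size factor, a measure of how far the typical gene sits above the other samples, was 1.23 against 0.934 to 1.10. In bulk RNA, fewer cells of a type and less RNA per cell cannot be told apart.

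Channel RNA in this muscle came from few genes. Of the 140 channel genes, 23 were at 0 in all 9 samples and 59 had a mean above 0 but under 0.3 TPM. At the other end 8 had a mean of 100 TPM or more and 15 a mean of 10 to under 100 TPM. The 12 genes of highest mean over the 9 samples took 87.8% to 90.5% of the channel TPM of each sample. Genes that reached 0.3 TPM in at least 3 samples were tested, which left 59 channel genes among 16140 genes in all, 44 of them over that floor in every sample. At the edge, Kcnk3 reached the floor in exactly 3 samples and was tested, while Cacna2d2, Cacnb2, Kcna10 and Kcne3 reached it in 2 and were not.

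Genes of high mean level over the 9 samples included Cacng1 (322 TPM), Scn4a (240), Scn4b (158) and Cacnb1 (136). All of these are subunits of the sodium channel or the dihydropyridine receptor, and the plot of levels by gene shows the steps below them. Clcn1, Cacna2d1 and Cacng6 followed at means of 127, 127 and 112 TPM, and the highest potassium channel gene was Kcnj11 at 92.1 TPM. Clcn1 and Cacna2d1, neighbours in this order, do not differ beyond the spread over their samples.

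**Figure D1:**
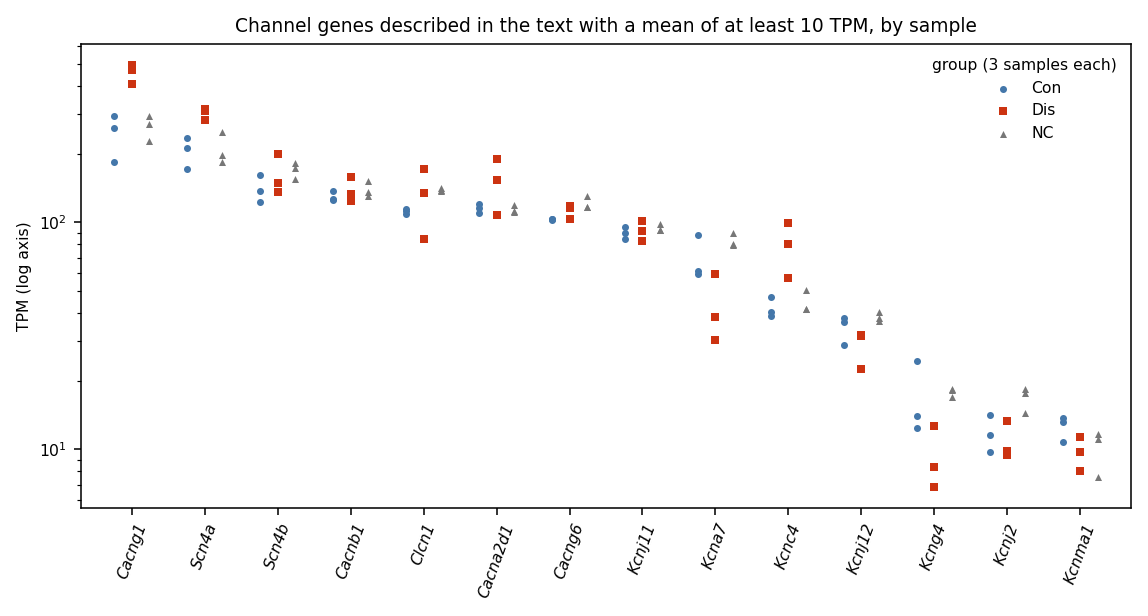
TPM on a log axis for 14 of the channel genes described here, each with a mean of at least 10 TPM, ordered by that mean, with 1 point per sample and 3 samples per group (blue circles Con, red squares Dis, grey triangles NC). Means ran from 322 TPM (Cacng1) to 10.8 TPM (Kcnma1), and the Dis points of Cacng1, Scn4a and Kcnc4 lie above all 6 other samples of the same gene.

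A smaller share of channel genes than of all tested genes was higher in the immobilized leg, and the share that was lower stood near that of all genes against Con and above it against NC. Against Con, limma called 8 of 59 channel genes (13.6%) beside 17.2% of all tested genes, with 6 higher (10.2% beside 14.1%) and 2 lower (3.39% beside 3.08%). Against NC, 10 of 59 (16.9%) were called beside 16.6% of all tested genes, with 5 higher (8.47% beside 13.6%) and 5 lower (8.47% beside 2.99%). Every Dis sample was above every Con sample for 13 channel genes (22% beside 30.2% of all tested genes) and below for 4 (6.78% beside 6.43%). Against NC these counts were 9 (15.3% beside 31.3%) and 8 (13.6% beside 6.71%). At an unadjusted p below 0.05 stood 16 channel genes against Con (27.1% beside 33.7%) and 17 against NC (28.8% beside 34.1%). These shares are descriptions of the list, and the comparisons share the Dis samples. The median log2 fold change of the channel genes was 0.10 against Con and 0.09 against NC, where the median of all tested genes was 0.20 and 0.21. After median-ratio scaling, which removes that general shift, the channel medians were −0.07 and −0.11, the calls were 4 higher and 3 lower against Con, and 1 higher and 7 lower against NC.

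The counts moved when single samples were left out. Each omission also makes a group smaller, so a lost call need not mean a smaller difference. Leaving out a sample of the third group keeps a fold change as it was and can still end a call. Kcnj2 against NC stayed at −0.62 without Con sample 2 and was no longer called. Against Con, the higher count fell to 2 without Con sample 1 and 3 without Con sample 3. The lower count was 0 without any 1 of the Con samples, 1 without Dis sample 3 or any 1 of the NC samples, and 4 without Dis sample 2. Against NC, the higher count fell to 1, 2 and 3 without NC samples 1, 2 and 3, and the lower count to 0, 0 and 1, with 3 lower without Con sample 2 or Dis sample 2. Only Kcnq5 and Cacng1 passed the threshold against Con in all 20 other settings tried, and only Kcnq5 did so in all 19 against NC. Of the 20 against Con, Kcnc4 and Kcne4 passed in 16, Cacna1a in 12, Scn4a in 9, Kcnh2 in 7 and Clcn6 in 6. Losses given below by gene are mostly those from leaving out samples or median-ratio scaling, and other settings ended some of these calls too.

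**Figure D2:**
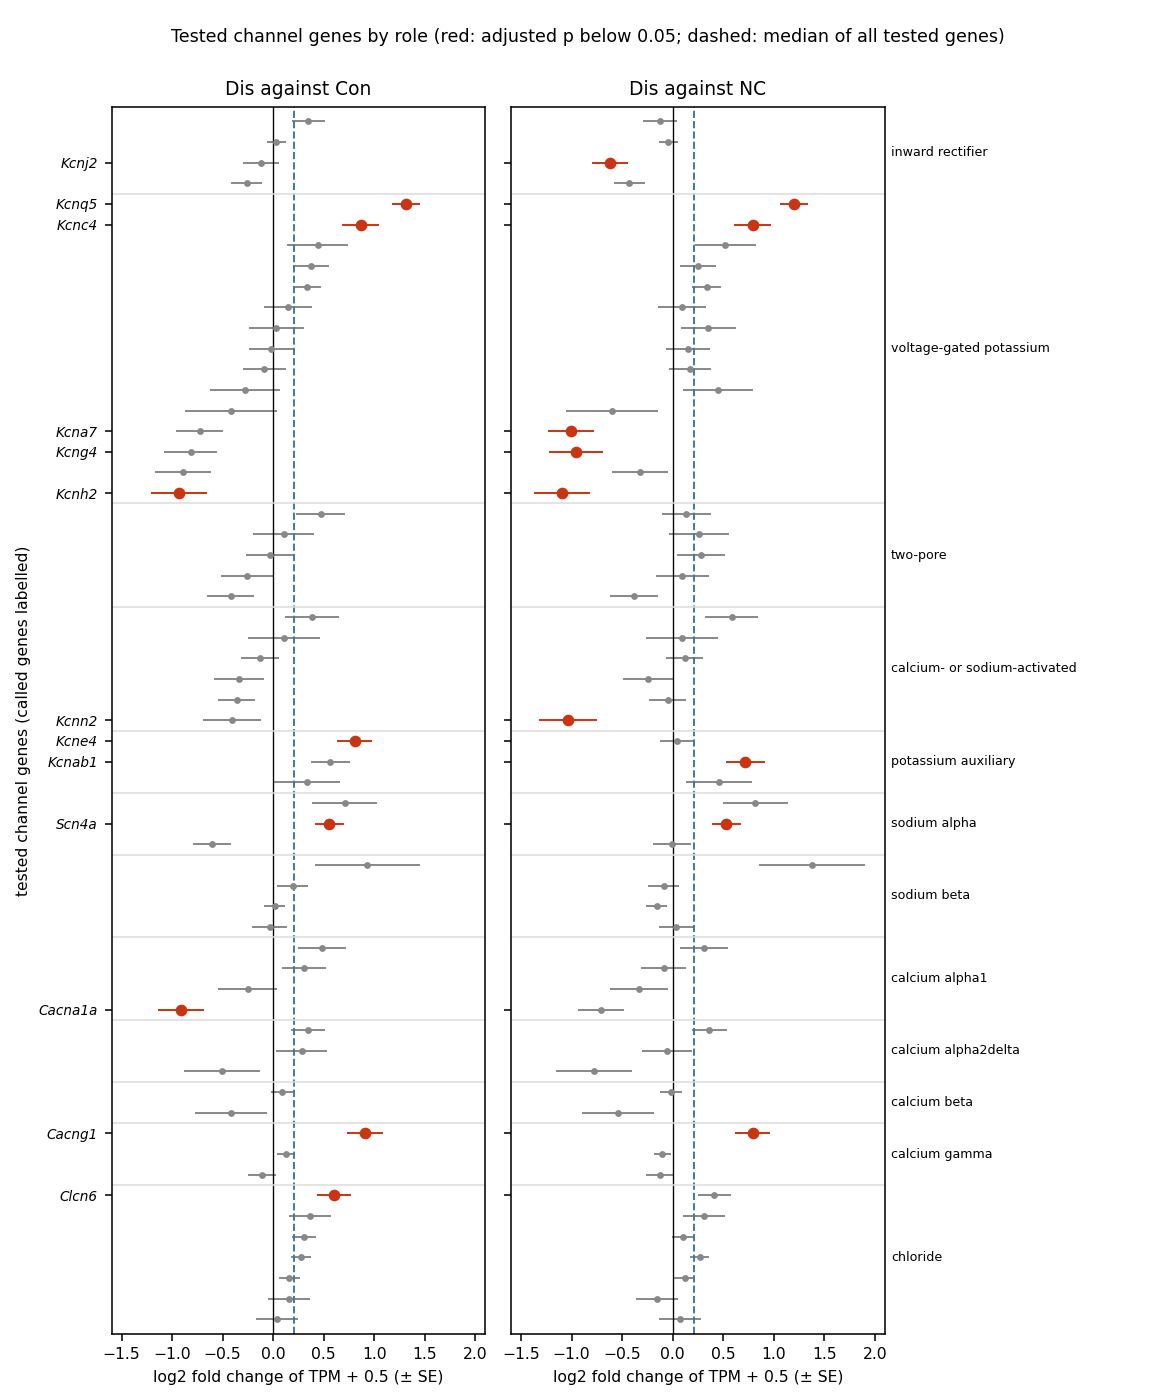
Difference in mean log2(TPM + 0.5) between Dis and Con (left) and Dis and NC (right) for each of the 59 tested channel genes, grouped by role, with bars of 1 SE and the genes called in either comparison labelled. Red points passed an adjusted p of 0.05 and the dashed line is the median of all tested genes (0.20 and 0.21). Called genes lie on both sides within the voltage-gated potassium genes, with Kcnq5 at 1.31 and Kcnh2 at −0.93 against Con.

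Voltage-gated potassium channels, which open when the membrane depolarizes, held the called genes that lay farthest apart. Of 40 such genes 15 were tested, and against Con 2 rose (Kcnq5 and Kcnc4), 1 fell (Kcnh2) and 12 did not pass, a called share of 20% beside 17.2% of all tested genes. Against NC the same 2 rose, 3 fell (Kcnh2, Kcna7 and Kcng4) and 10 did not pass, a called share of 33.3% beside 16.6%. The median log2 fold change of the 15 was −0.02 against Con and 0.17 against NC, so the group had no common direction.

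Kcnq5 encodes Kv7.5, a slow channel of the type that carries the M current in neurons. It lies on the minus strand of chromosome 1 from 21398403 to 21961942 (ENSMUSG00000028033). The study's library kit was strand-specific, but no source states whether the counting used strand. Kcnq5 shares 237 exon bases with Gm26580, a lincRNA on the opposite strand that was not analysed here. Its level was 4.403, 3.33 and 4.01 TPM in the Con samples, 9.77, 11.3 and 10.2 TPM in Dis and 3.90, 4.89 and 4.01 TPM in NC. Every Dis sample was above every other sample, and the spread within each group was small. The means were 3.92 ± 0.540 (SD, n = 3) in Con, 10.4 ± 0.816 in Dis and 4.27 ± 0.540 in NC. By limma the log2 fold change was 1.31 (SE 0.14, adjusted p = 0.00275) against Con and 1.20 (SE 0.14, adjusted p = 0.00318) against NC. Under the other settings it ranged from 1.09 to 1.40 against Con.

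Kcnc4 encodes Kv3.4, a fast channel of muscle fibres that can pair with the ancillary subunit Kcne3. It lies on the minus strand of chromosome 3 from 107438303 to 107459552 (ENSMUSG00000027895). Its level was 38.8, 46.8 and 40.5 TPM in Con, 57.2, 99.1 and 80.1 TPM in Dis and 41.5, 41.5 and 50.3 TPM in NC. Every Dis sample was above all others, with a wide spread among them (78.8 ± 21 against 42.0 ± 4.22 in Con and 44.4 ± 5.12 in NC). On the log2 scale the difference was 0.87 (SE 0.18, adjusted p = 0.0161) against Con and 0.79 (SE 0.18, adjusted p = 0.0206) against NC. The call against Con was lost without Con sample 1 (adjusted p = 0.0654) or 3 (0.0520), and the call against NC without NC sample 1 (0.0784) or 2 (0.0686) and under median-ratio scaling (0.0583). Kcne3 itself stayed under the filter, with 0.228 to 0.305 TPM in Con, 0.184 to 0.470 in Dis and 0 to 0.192 in NC.

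Kcna7, Kv1.7, a channel strongly expressed in muscle, was the highest voltage-gated potassium gene by mean over all samples (65.0 TPM). It had 87.7, 59.2 and 61.0 TPM in Con, 38.2, 30.4 and 59.3 TPM in Dis and 79.4, 89.4 and 80.2 TPM in NC. Dis lay below NC in every sample, while Dis sample 3 overlapped Con sample 2. Its log2 fold change was −1.01 (SE 0.23, adjusted p = 0.0198) against NC and −0.73 (SE 0.23, adjusted p = 0.0578) against Con. The call against NC was lost without NC sample 1 (0.0622), 2 (0.0674) or 3 (0.0591), and without Dis sample 3 the difference from Con passed (log2 fold change −0.99, adjusted p = 0.0166).

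Kcng4 encodes Kv6.4, a silent subunit that forms no channel alone and alters others. It had 24.5, 13.98 and 12.5 TPM in Con, 12.7, 6.87 and 8.35 TPM in Dis and 17.0, 18.5 and 18.3 TPM in NC. All Dis samples were below all NC samples, and Dis sample 1 lay just above the lowest Con sample. Dis differed by a log2 fold change of −0.96 (SE 0.26, adjusted p = 0.0376) against NC and −0.82 (SE 0.26, adjusted p = 0.061) against Con. The call against NC was lost without any 1 of the NC samples (0.0946 to 0.102), Dis sample 2 (0.0874) or 3 (0.0802), or Con sample 2 (0.0520). Without Dis sample 1 the difference from Con passed (adjusted p = 0.0270).

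Kcnh2 encodes ERG1, a channel whose form Merg1a has been studied in wasting mouse muscle. Its level was low, at 1.45, 1.52 and 1.32 TPM in Con, 0.146, 1.07 and 0.516 TPM in Dis and 1.79, 1.65 and 1.53 TPM in NC. The Dis samples lay below all others but differed among themselves by more than the gap to the controls. The log2 fold change was −0.93 (SE 0.28, adjusted p = 0.0474) against Con and −1.09 (SE 0.28, adjusted p = 0.0284) against NC. Leaving out any 1 sample other than Dis sample 2 ended the call against Con (adjusted p from 0.0712 to 0.125). The call against NC was lost without Dis sample 3 (0.0541) or NC sample 1 (0.0943), 2 (0.0775) or 3 (0.0731). The gene level does not separate its transcript forms.

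The start regions of 4 of these genes are shown because they belong to 1 channel class and moved in opposite directions. Each is 300 bases of RefSeq promoter sequence (GRCm38.p6, 250 bases before to 50 after the start), read 5′ to 3′ on the gene's strand. They lie at chr1:21961893-21962192 (minus) for Kcnq5, chr3:107458849-107459148 (minus) for Kcnc4, chr7:45405710-45406009 (plus) for Kcna7 and chr8:119635631-119635930 (minus) for Kcng4. Capitals mark matches to CANNTG, the E-box letters that muscle regulatory factors such as MyoD can bind.
Kcnq5: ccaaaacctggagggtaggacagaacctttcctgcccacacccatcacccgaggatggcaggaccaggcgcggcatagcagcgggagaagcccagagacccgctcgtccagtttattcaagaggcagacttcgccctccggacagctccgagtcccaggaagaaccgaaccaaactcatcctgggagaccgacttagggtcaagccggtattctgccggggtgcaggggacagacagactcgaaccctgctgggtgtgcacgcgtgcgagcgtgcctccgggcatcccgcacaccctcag
Kcnc4: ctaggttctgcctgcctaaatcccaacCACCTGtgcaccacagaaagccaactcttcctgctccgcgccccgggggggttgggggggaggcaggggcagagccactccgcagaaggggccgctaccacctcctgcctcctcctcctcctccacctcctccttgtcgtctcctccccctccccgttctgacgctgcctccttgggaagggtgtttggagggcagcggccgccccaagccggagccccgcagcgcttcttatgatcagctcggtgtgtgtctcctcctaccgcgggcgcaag
Kcna7: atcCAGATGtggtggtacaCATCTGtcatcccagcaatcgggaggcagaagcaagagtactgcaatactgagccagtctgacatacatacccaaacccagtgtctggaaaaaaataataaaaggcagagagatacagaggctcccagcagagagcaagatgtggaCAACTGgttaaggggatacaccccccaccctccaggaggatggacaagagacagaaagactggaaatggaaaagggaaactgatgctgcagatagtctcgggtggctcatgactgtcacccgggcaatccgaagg
Kcng4: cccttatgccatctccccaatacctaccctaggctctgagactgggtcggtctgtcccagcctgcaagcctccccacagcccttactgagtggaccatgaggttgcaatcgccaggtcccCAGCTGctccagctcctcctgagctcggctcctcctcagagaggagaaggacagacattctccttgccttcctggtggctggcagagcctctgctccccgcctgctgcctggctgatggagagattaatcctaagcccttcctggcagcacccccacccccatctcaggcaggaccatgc
On a search of both strands Kcnq5 held 0 matches to CANNTG, Kcnc4 1, Kcna7 3 and Kcng4 1, and 72.3% of the 32851 mouse promoters of this length hold at least 1. The match in Kcng4 is CAGCTG, a form of CANNTG that 16.3% of promoters hold. None of the 4 held TATAAA (13.6% of promoters) or the MEF2 motif (3.19%). The RefSeq start used for Kcnc4 lies 654 bases from the gene start in the deposited tables and that of Kcna7 307 bases, while those of Kcnq5 and Kcng4 lie at it. RefSeq promoter entries matched 103 of the 140 channel genes. A match of letters is not evidence of binding.

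**Figure D3:**
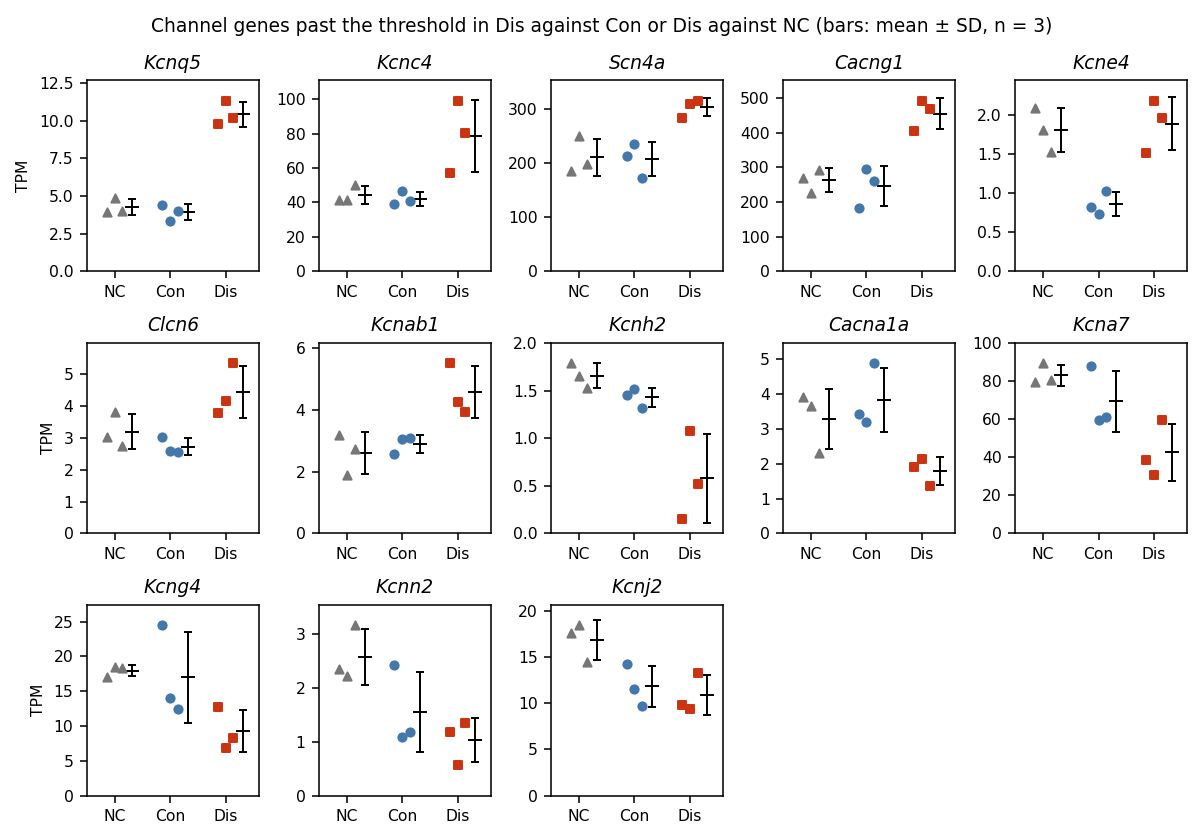
TPM by sample for the 13 channel genes that passed an adjusted p of 0.05 in Dis against Con or Dis against NC, in the order NC (grey triangles), Con (blue circles) and Dis (red squares), with bars for mean ± SD (n = 3). The 3 Dis points of Kcnq5 sit between 9.77 and 11.3 TPM, all above the other 6 samples, while those of Kcnh2 sit between 0.146 and 1.07 TPM, all below them.

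Among sodium channel genes the pore of the muscle channel was higher in the immobilized leg and no beta subunit was called. Of 10 alpha genes 3 were tested and 1 (Scn4a) rose in both comparisons. This called share of 33.3% stands beside 17.2% of all tested genes against Con and 16.6% against NC. Of 4 tested beta genes none passed in either comparison. Scn4a, on the minus strand of chromosome 11 from 106318592 to 106353288 (ENSMUSG00000001027), had 213, 235 and 173 TPM in Con, 283, 309 and 315 TPM in Dis and 184, 249 and 198 TPM in NC. Every Dis sample was above all others. By limma the log2 fold change was 0.56 (SE 0.14, adjusted p = 0.0292) against Con and 0.53 (SE 0.14, adjusted p = 0.033) against NC, which is 1.46 and 1.44 times as a ratio of mean TPM. Under median-ratio scaling these fell to 0.33 (adjusted p = 0.227) and 0.29 (adjusted p = 0.276). The call against Con was also lost without Con sample 1 (0.0786) or 3 (0.0876) or Dis sample 2 (0.0501) or 3 (0.0647), and that against NC without NC sample 1 (0.122) or 3 (0.105) or Dis sample 2 (0.0615) or 3 (0.0686).

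Scn4b, the beta4 subunit, had 141 ± 19.8, 162 ± 33.8 and 171 ± 13.7 TPM in Con, Dis and NC and was not called (adjusted p = 0.415 and 0.713).

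Of the calcium channel genes, 1 gamma subunit rose in both comparisons and 1 alpha1 pore gene fell against Con only. Called shares were 33.3% of the tested gamma genes in each comparison and 25% of the tested alpha1 genes against Con. Of all tested genes 17.2% were called against Con and 16.6% against NC. Cacng1, the gamma subunit of the muscle dihydropyridine receptor, lies on the minus strand of chromosome 11 from 107703218 to 107716522 (ENSMUSG00000020722). Its level was 184, 295 and 261 TPM in Con, 405, 493 and 470 TPM in Dis and 271, 227 and 293 TPM in NC. All Dis samples were above all others, with means of 246 ± 56.8, 456 ± 45.7 and 264 ± 33.5 TPM in Con, Dis and NC. On the log2 scale the difference was 0.91 (SE 0.17, adjusted p = 0.0119) against Con and 0.79 (SE 0.17, adjusted p = 0.0178) against NC. The call against NC was lost without NC sample 1 (0.0586) or 2 (0.0633) and under median-ratio scaling (log2 fold change 0.55, adjusted p = 0.0824).

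The other subunits of the same receptor were not called. Cacnb1, the beta subunit, had 130 ± 6.39 TPM in Con, 138 ± 17.4 in Dis and 140 ± 11.5 in NC (adjusted p = 0.602 and 0.929). Cacna2d1, the alpha2delta subunit, had 110, 116 and 121 TPM in Con, 190, 108 and 154 TPM in Dis and 119, 112 and 111 TPM in NC. Only Dis sample 2 of the Dis samples was not above every Con and NC sample, and the log2 fold change was 0.34 (SE 0.17, adjusted p = 0.192) against Con and 0.36 (SE 0.17, adjusted p = 0.168) against NC. Without that sample both differences passed, at 0.57 (adjusted p = 0.0109) and 0.58 (adjusted p = 0.00978). Cacng6, a second gamma subunit of muscle, had 103 ± 1.06, 113 ± 7.98 and 121 ± 7.68 TPM in Con, Dis and NC and was not called (adjusted p = 0.332 and 0.406).

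Set against the pore of the receptor, the subunits parted. The ratio of Cacng1 to Cacna1s within a sample was 0.744 to 0.955 in Dis, 0.435 to 0.628 in Con and 0.5002 to 0.648 in NC, with no overlap. The ratio of Cacnb1 to Cacna1s was 0.201 to 0.290 in Dis and 0.274 to 0.335 in Con and NC, and that of Cacna2d1 was 0.208 to 0.348 in Dis and 0.231 to 0.291 in Con and NC, both overlapping. These ratios were chosen after the values were seen.

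Cacna1a encodes the P/Q-type pore known at motor nerve endings. It had 3.43, 3.19 and 4.90 TPM in Con, 1.91, 2.13 and 1.36 TPM in Dis and 3.91, 3.67 and 2.31 TPM in NC. Every Dis sample was below all others, closest to NC sample 3. Its log2 fold change was −0.91 (SE 0.23, adjusted p = 0.028) against Con and −0.71 (SE 0.23, adjusted p = 0.062) against NC. The call against Con was lost without Con sample 1 (0.0738), 2 (0.0512) or 3 (0.0876) or Dis sample 3 (0.069), and the difference from NC passed without NC sample 3 (0.0482) and after median-ratio scaling (log2 fold change −0.91, adjusted p = 0.0341). Schwann cell markers, the glia of the same nerves, summed to 196, 151 and 376 TPM in Dis. They summed to 61.9 to 156 TPM in Con and 101 to 172 TPM in NC. Of these 8 genes 2 were higher than in Con, beside 14.1% of all tested genes, and none was called against NC. Neuron markers were at or near 0. The part of nerve tissue in the Cacna1a levels was not tested. Of the 9 alpha1, 4 alpha2delta, 4 beta and 8 gamma genes, 4, 3, 2 and 3 were tested.

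Inward rectifiers pass potassium into the cell more readily than out and hold the resting voltage. Of 15 such genes 4 were tested, with no call against Con and 1 fall against NC. The called share against NC was 25% beside 16.6% of all tested genes. Kcnj2, Kir2.1, had 14.2, 11.6 and 9.77 TPM in Con, 9.85, 9.42 and 13.4 TPM in Dis and 17.7, 18.5 and 14.5 TPM in NC. Both legs of the immobilized mice were below NC in every sample, and Dis and Con overlapped. The log2 fold change of Dis was −0.62 (SE 0.17, adjusted p = 0.0409) against NC and −0.12 (SE 0.17, adjusted p = 0.66) against Con, and that of Con against NC was −0.50 (unadjusted p = 0.0183, adjusted p = 0.638). The call was lost without Con sample 2 (0.0622), Dis sample 1 (0.0812) or 2 (0.0912) or any 1 of the NC samples (0.0597 to 0.126).

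Kcnj12, Kir2.2, had 34.4 ± 4.91 TPM in Con, 28.7 ± 5.31 in Dis and 38.4 ± 1.85 in NC. It lay below NC in every Dis sample but did not pass (log2 fold change −0.43, SE 0.15, adjusted p = 0.081). Kcnj11, Kir6.2, the pore of the potassium channel that closes on ATP, had 89.7 ± 5.37, 91.9 ± 8.98 and 94.5 ± 3.41 TPM in Con, Dis and NC. Its log2 fold changes were 0.03 (SE 0.09, adjusted p = 0.839) and −0.04 (SE 0.09, adjusted p = 0.761).

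Potassium channels opened by calcium or sodium gave 1 call. Of 8 such genes 6 were tested, with a called share of 16.7% against NC beside 16.6% of all tested genes. The called gene, Kcnn2, SK2, fell against NC. It had 2.42, 1.08 and 1.18 TPM in Con, 1.18, 0.566 and 1.36 TPM in Dis and 2.35, 2.22 and 3.17 TPM in NC. Dis was below NC in every sample and overlapped Con, whose sample 1 was at the NC level. Dis differed by a log2 fold change of −1.03 (SE 0.29, adjusted p = 0.0387) against NC and −0.41 (SE 0.29, adjusted p = 0.346) against Con. The call was lost without Con sample 3 (0.0545), Dis sample 2 (0.0851) or any 1 of the NC samples (0.0772 to 0.123). Its relative Kcnn3, SK3, known from immature and denervated fibres, had 0.853, 1.00 and 1.68 TPM in Con, 1.10, 2.51 and 1.56 TPM in Dis and 0.892, 1.16 and 0.772 TPM in NC. The groups overlapped and neither difference passed (log2 fold change 0.39, adjusted p = 0.336, and 0.58, adjusted p = 0.153). Kcnma1, the BK channel opened by both voltage and calcium, had 12.6 ± 1.58, 9.71 ± 1.66 and 10.2 ± 2.27 TPM and was not called (adjusted p = 0.207 and 0.87). Of 14 tandem-pore (Kcnk) leak channel genes 5 were tested and none passed in either comparison.

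Ancillary potassium channel subunits gave 1 call in each comparison. Of 15 such genes 3 were tested, a called share of 33.3% each time. Of all tested genes 17.2% were called against Con and 16.6% against NC. Kcne4, a KCNE subunit that damps several voltage-gated potassium channels, had 0.822, 0.728 and 1.03 TPM in Con, 1.52, 2.19 and 1.97 TPM in Dis and 2.095, 1.81 and 1.53 TPM in NC. Con was below both other groups in every sample, and Dis and NC overlapped. The log2 fold change of Dis was 0.81 (SE 0.17, adjusted p = 0.0168) against Con and 0.04 (SE 0.17, adjusted p = 0.877) against NC, while that of Con against NC was −0.76 (unadjusted p = 0.00151, adjusted p = 0.394). The call against Con was lost without Con sample 1 (0.0654) or 2 (0.0568).

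Kcnab1, the Kv beta1 subunit, had 2.57, 3.06 and 3.10 TPM in Con, 5.52, 4.27 and 3.93 TPM in Dis and 3.19, 1.88 and 2.75 TPM in NC. All Dis samples were above all others. The log2 fold change was 0.72 (SE 0.19, adjusted p = 0.0334) against NC and 0.57 (SE 0.19, adjusted p = 0.0709) against Con. It passed against NC in 6 of 19 other settings and was lost without Con sample 2 (0.0515) or 3 (0.0532), Dis sample 1 (0.0725) or any 1 of the NC samples (0.0505 to 0.0991), and under median-ratio scaling (0.169).

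Chloride channel genes gave 1 call against Con and none against NC, among 7 tested of 9. The called share against Con was 14.3% beside 17.2% of all tested genes. Their log2 fold changes against Con ran from 0.04 to 0.60 with a median of 0.28 beside 0.20 for all tested genes, and all 7 were positive, as were 73.2% of all tested genes. Against NC 6 of 7 were positive, beside 73.7%, with a median of 0.12 beside 0.21. Clcn1 turned to −0.07 against Con under median-ratio scaling. The called gene was Clcn6, a chloride and proton exchanger of late endosomes, with 3.03, 2.58 and 2.57 TPM in Con, 3.78, 4.16 and 5.36 TPM in Dis and 3.02, 3.81 and 2.76 TPM in NC. Dis was above Con in every sample and overlapped NC sample 2. By limma the log2 fold change was 0.60 (SE 0.17, adjusted p = 0.0371) against Con and 0.41 (SE 0.17, adjusted p = 0.112) against NC. The call held in 6 of 20 other settings and was lost without any 1 of the Con samples (0.0798 to 0.102), Dis sample 3 (0.0862) or NC sample 1 (0.0615) or 3 (0.0515), and under median-ratio scaling (0.181).

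Clcn1, the resting chloride channel, had 109, 114 and 112 TPM in Con, 135, 84.2 and 172 TPM in Dis and 138, 141 and 139 TPM in NC. The 3 Dis samples spanned both control groups, with sample 2 lowest and sample 3 highest of all 9, and Con was below NC in every sample. No difference passed, with log2 fold changes of 0.16 (SE 0.21, adjusted p = 0.622) against Con, −0.16 (SE 0.21, adjusted p = 0.615) against NC and −0.32 (adjusted p = 0.903) for Con against NC. Without Dis sample 2 the difference from Con was 0.44 and passed (adjusted p = 0.0252), and without Dis sample 3 it was −0.07.

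**Figure D4:**
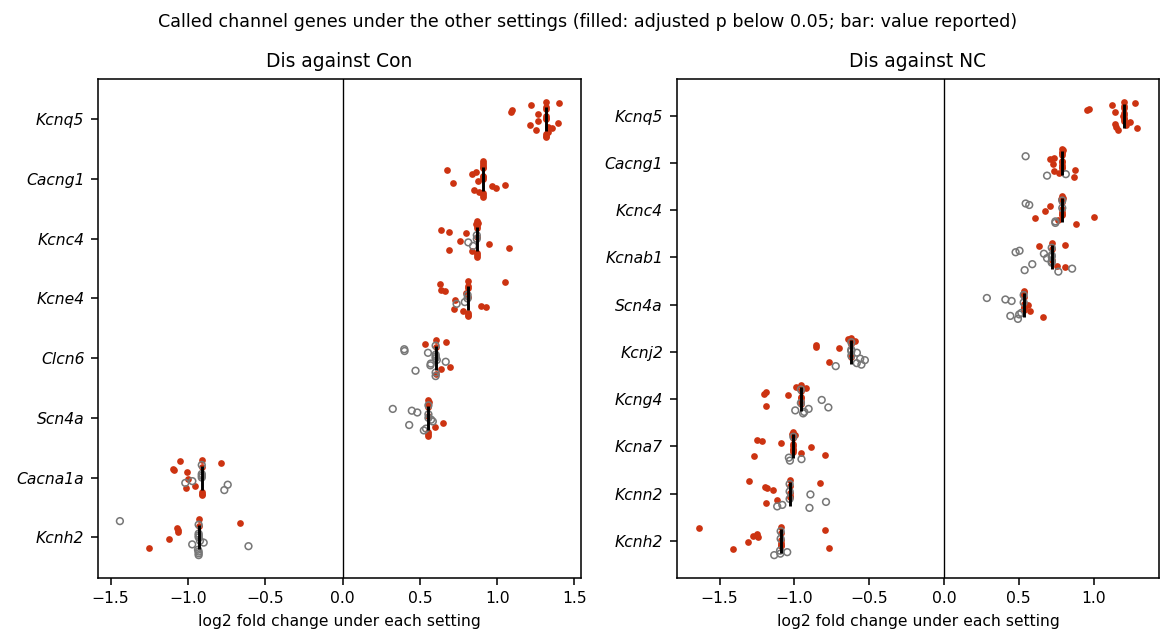
Log2 fold change of each called channel gene in the values reported (bar) and under each other setting (points, filled where the adjusted p was below 0.05, open where not), for Dis against Con (left, 20 settings) and Dis against NC (right, 19 settings). Every point of these genes lies on the same side of 0, and only Kcnq5 and Cacng1 on the left and Kcnq5 on the right have filled points throughout.

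The free leg was compared with untreated muscle because it shares the animal with the immobilized leg. No channel gene passed for Con against NC by limma, beside 1 gene (0.0062%) of all those tested, and 5 channel genes (8.47%) had an unadjusted p below 0.05 beside 6.25% of all tested genes. These were Cacng6 (log2 fold change −0.23), Kcnj2 (−0.50), Kcnj8 (−0.47), Kcne4 (−0.76) and Scn2a (0.60). Kcnj8 and Scn2a are named for these values. Kcnj8, Kir6.1, had 9.09 to 11.6 TPM in Con and 12.8 to 17.4 in NC, and Scn2a, a neuronal sodium channel that shares stretches of sequence with Scn3a, 0.616 to 0.922 and 0.288 to 0.423 TPM. All Con samples lay on 1 side of all NC samples for 11 channel genes, 8 lower (13.6% beside 8.11% of all tested genes) and 3 higher (5.08% beside 9.54%).

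Summed, channel RNA was higher in the immobilized leg as TPM and not after rescaling. The sum mostly follows few genes and does not speak for the rest. The 5 of highest mean, Cacng1 and Scn4a among them, made up 59.2% to 68.1% of it in each sample. The 140 genes summed to 1990, 2026 and 1914 TPM in Con, 2297, 2423 and 2461 TPM in Dis and 2097, 2153 and 2267 TPM in NC. Divided by the median-ratio size factors the sums were 2097, 2161 and 1948 in Con, 2194, 1975 and 2238 in Dis and 2246, 2251 and 2392 in NC, and the order was lost. Dis sample 2 was the highest of the 9 samples for 18 of 59 channel genes (30.5%) beside 42% of all tested genes. Several low channel genes were far highest there, among them Scn3b, a sodium beta subunit, at 9.26 TPM there and at most 3.20 TPM elsewhere. Scn7a had 3.88 and 1.39 TPM in the same way, and both were picked out after the values were seen. The other Dis samples were also above every Con and NC sample for Scn7a (1.16 and 1.39 TPM). For Scn3b (1.45 and 3.20 TPM) they were above every NC sample but overlapped Con.

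Genes listed as partners of the channels but outside the symbol rule were followed in a list of 47, of which 33 were tested. Against Con 6 rose (18.2% beside 14.1% of all tested genes) and 4 fell (12.1% beside 3.08%), and against NC 3 rose (9.09% beside 13.6%) and 3 fell (9.09% beside 2.99%). The list is short and was chosen with earlier results of these data known, so these shares describe it only. The largest difference among these calls was that of Lrrc52, a gamma subunit that lets BK channels open at lower voltage. It had 6.41, 6.76 and 4.48 TPM in Con, 0.685, 0.351 and 0.571 TPM in Dis and 1.75, 4.04 and 1.38 TPM in NC. Every Dis sample was below all others and Con was above NC in every sample. On the log2 scale the difference was −2.62 (SE 0.31, adjusted p = 0.00343) against Con and −1.38 (SE 0.31, adjusted p = 0.0195) against NC. The latter was lost without NC sample 1 (0.0511), with no filter (0.0547) and with fits of 2 groups (0.0522). Lrrc38, another BK gamma subunit, had 24.1, 22.3 and 18.7 TPM in Con, 16.0, 13.5 and 19.0 TPM in Dis and 28.3, 27.1 and 29.3 TPM in NC, and fell against NC (log2 fold change −0.80, SE 0.14, adjusted p = 0.00755) but did not pass against Con (−0.42, SE 0.14, adjusted p = 0.0629). The pore gene Kcnma1 was not called beside them, as given above.

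Abcc9 encodes SUR2, the subunit that makes a channel closed by ATP when joined to Kir6.2. It had 56.9 ± 0.799 TPM in Con, 77.4 ± 3.67 in Dis and 62.9 ± 1.54 in NC, with every Dis sample above all others. It rose by a log2 fold change of 0.44 (SE 0.07, adjusted p = 0.00767) against Con and 0.30 (SE 0.07, adjusted p = 0.026) against NC. Under median-ratio scaling neither passed (0.229 and 0.799), and the call against NC was lost without NC sample 1 (0.0987), 2 (0.0588) or 3 (0.0857). The ratio of Abcc9 to Kcnj11 within a sample was 0.792 to 0.950 in Dis and 0.603 to 0.700 in Con and NC, a ratio chosen after the values were seen.

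By partner list, the calls against Con were 3 higher of 7 tested for the sodium channel, 2 higher of 4 for the chloride channel, 1 higher and 1 lower of 5 for the ATP-closed and BK channels and 3 lower of 9 for the sodium and potassium pump, beside 14.1% higher and 3.08% lower of all tested genes. None was called of 5 partners of the dihydropyridine receptor, 1 of Kv4 and 2 other cation channels. Sgk1, a kinase that keeps channels at the membrane, had 132, 192 and 129 TPM in Con, 271, 304 and 315 TPM in Dis and 139, 162 and 166 TPM in NC. It rose in both comparisons (log2 fold change 0.99, SE 0.15, adjusted p = 0.00617, and 0.93, SE 0.15, adjusted p = 0.00644). Prkcq, protein kinase C theta, which lowers ClC-1 activity in muscle, had 39.6 ± 1.55, 75.8 ± 13.2 and 50.02 ± 2.39 TPM in Con, Dis and NC, with log2 fold changes of 0.91 (SE 0.12, adjusted p = 0.00406) and 0.58 (SE 0.12, adjusted p = 0.0149). The latter was lost without NC sample 1 (0.0553) or 3 (0.0582) and under median-ratio scaling (0.112).

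Fewer settings held the other calls. Nedd4l, a ubiquitin ligase of sodium channels (log2 fold change 0.58, adjusted p = 0.0438), Ank3, ankyrin G, which anchors them (0.44, 0.0468), and Mbnl1, a splicing factor that acts on Clcn1 transcripts (0.60, 0.0451), rose against Con and passed in 5, 6 and 6 of 20 other settings. All 3 lost the call without Con sample 1 or 3, Dis sample 3 or NC sample 1 or 3, with adjusted p at most 0.157, and under median-ratio scaling (0.251, 0.473 and 0.311). Single omissions that also ended a call were Con sample 2 (0.1), Dis sample 2 (0.0614) for Nedd4l, Dis sample 1 (0.0945) and NC sample 2 (0.0652) for Ank3, and Con sample 2 (0.108), Dis sample 1 (0.0774) and NC sample 2 (0.0613) for Mbnl1.

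On the pump list, Atp1b4 is a homologue of the beta subunits. It had 4.995, 4.63 and 5.28 TPM in Con, 1.30, 1.07 and 2.34 TPM in Dis and 1.82, 2.92 and 1.97 TPM in NC. It fell against Con (log2 fold change −1.45, SE 0.23, adjusted p = 0.00698) and overlapped NC. Atp1b1, the beta1 subunit, had 168, 148 and 162 TPM in Con, 72.7, 48.0 and 105 TPM in Dis and 98.1, 171 and 78.5 TPM in NC, with a log2 fold change of −1.15 (SE 0.31, adjusted p = 0.0357) against Con that was lost without any 1 of the Con samples (0.0796 to 0.106), Dis sample 1 (0.0609) or 2 (0.07) or NC sample 1 (0.0565). Fxyd1, phospholemman, which tunes the pump, had 456 ± 12.8, 378 ± 15.4 and 465 ± 14.4 TPM in Con, Dis and NC, below all controls in every Dis sample. Its log2 fold changes were −0.27 (SE 0.08, adjusted p = 0.0429) and −0.30 (SE 0.08, adjusted p = 0.0302). The call against Con was lost without any 1 sample other than Dis sample 2 (0.0517 to 0.129), and that against NC without Con sample 2 or 3, Dis sample 1 or any 1 of the NC samples (0.0501 to 0.116). Cacna1s, the pore of the dihydropyridine receptor, had 446 ± 47.4, 560 ± 52.3 and 443 ± 21.4 TPM, above both controls in every Dis sample, and did not pass (log2 fold change 0.33, adjusted p = 0.0634, and 0.33, adjusted p = 0.0604).

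**Figure D5:**
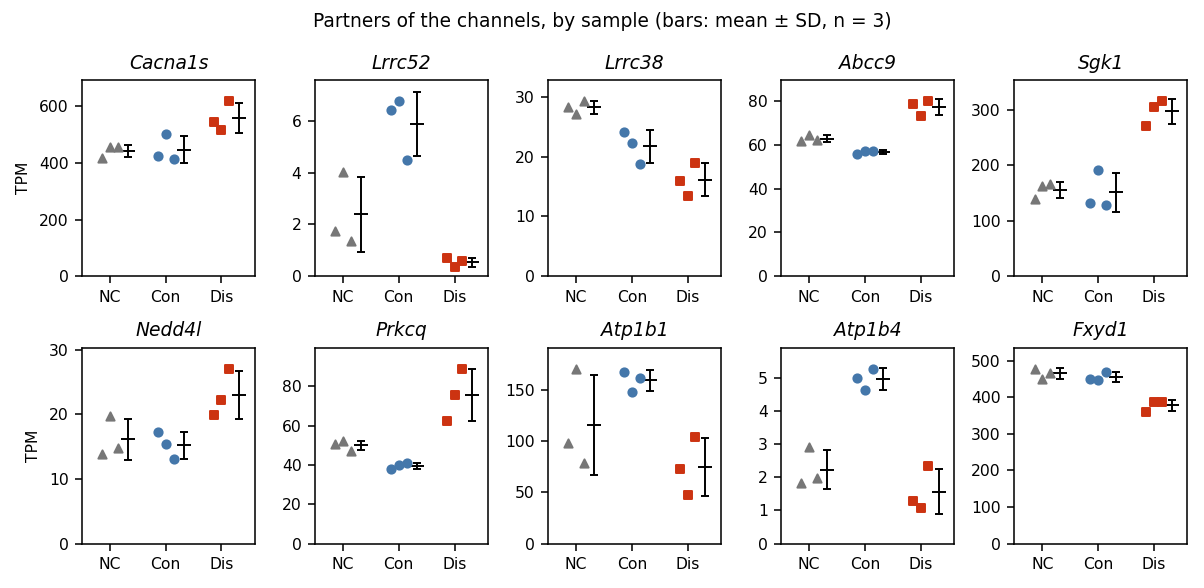
TPM by sample for 10 genes of the partner list, in the order NC (grey triangles), Con (blue circles) and Dis (red squares), with bars for mean ± SD (n = 3). Dis lies below all other samples for Lrrc52 (0.351 to 0.685 TPM) and Fxyd1 and above them for Abcc9, Sgk1 and Prkcq, and Con is above NC in every sample for Lrrc52 and Atp1b4.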

How the data were processed

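RNA of 9 mouse muscle samples (3 Con, 3 Dis, 3 NC) was sequenced. According to the study's methods and the labels, the authors demultiplexed reads with bcl2fastq 2.20, trimmed them with Trimmomatic, aligned them with HISAT2 and quantified genes with StringTie. The deposited values are TPM, 1 table per sample, and the authors' own tests used DEseq. The build is not given in the sources used here. Gene loci of 54778 identifiers, 136 of the 140 channel genes among them, match GENCODE M21 (GRCm38), which was used for positions and overlaps. The study's methods name a strand-specific library kit, but no source states whether the counting used strand. If it did not, reads of overlapping antisense genes were not told apart. No called channel gene shares exon bases with a gene measured above 0.1 TPM.

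TPM holds no depth, so precision rests on the spread over samples, and p-values measure only that spread. The value 0.0001 TPM, used for no expression, counted as 0. Genes that reached 0.3 TPM in 3 or more samples were fitted over the 3 groups with limma 3.58.1 (trend) in R 4.3.3 on log2(TPM + 0.5), two-sided, with Benjamini-Hochberg adjustment over all 16140 genes and a threshold of 0.05. Adjusted p-values without further words are from this fit. Fold changes of low genes tend to be smaller on this scale than the ratio of their means. This is strongest under about 1 TPM but also touches genes at a few TPM, such as Kcne4, Kcnn2 and Cacna1a. The script was tested on simulated data.

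Named channel genes are those called in any comparison, 14 muscle fibre channels and 2 of immature fibre whatever their values, the 5 highest by mean and those at the filter's edge. Some genes of this rule are not reported here. Other names are said to be chosen after the values were seen. The members, roles, partner list and marker lists were chosen with earlier results of these data known. The numbers in the labels were tried as pairs. Same-numbered Con and Dis samples had correlations of −0.0106, −0.0189 and 0.0218 in their deviations from the group means. This does not show that the numbers mark pairs, nor that the legs are independent. Con and Dis share animals, but the pairs are unknown, so samples were fitted as unpaired. Alternatives were pseudocounts of 0.1 and 1, no filter, a floor of 1 TPM, median-ratio and quantile scaling, TPM rescaled without mitochondrial genes, fits of 2 groups, a replicate block, array weights, and leaving out each sample. Count-based tests were not used, since the values are TPM. Python 3.11.15 (pandas 2.3.3, matplotlib 3.10.9) served for tables and figures.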

Additional observations from a re-analysis of the deposited data

How the results depend on the processing

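Depth is unknown and 3 samples per group limit every call. No difference that was called changed direction under any setting tried, and the direction changes were all in comparisons where the gene was not called. For Dis against Con, where 6 channel genes were higher and 2 lower, fits of the 2 groups gave 2 and 0, no filter gave 1 lower, and the counts ranged from 2 to 8 and from 0 to 4 when 1 sample was left out. Of partner genes, 6 higher and 4 lower, no filter, TPM without mitochondrial genes and fits of 2 groups each gave 3 higher, median-ratio and quantile scaling each gave 2, and leaving out 1 sample gave 3 to 8 higher and 2 to 4 lower. For Dis against NC, where 5 were higher and 5 lower, no filter gave 2 and 1, fits of 2 groups 2 and 2, median-ratio scaling 1 higher, quantile scaling 2 higher, TPM without mitochondrial genes 3 higher and array weights 2 lower. Leaving out 1 sample gave 1 to 6 higher and 0 to 5 lower. Partner genes there, 3 higher and 3 lower, fell to 1 higher under median-ratio and under quantile scaling and 1 lower with 2 groups, and ranged from 1 to 8 and from 1 to 4 when 1 sample was left out. For Con against NC every count of channel genes and partners was 0, except 1 partner gene higher with array weights.

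The same-numbered samples were not shown to pair. A replicate block over all 9 samples gave 5 channel genes higher and 2 lower against Con and 5 and 4 against NC, and 0 and 0 for Con against NC. The replicate block within Con and Dis gave 2 higher and 0 lower, and 1 partner gene higher and 1 lower.

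The median log2 fold change of channel genes against Con, 0.10, was 0.015 with no filter, −0.074 under median-ratio scaling, −0.060 under quantile scaling, 0.027 with array weights and 0.050 without mitochondrial genes, and 0.03 to 0.12 without 1 sample. That of all tested genes, 0.20, was 0.067, 0.009018, 0.027, 0.16 and 0.15 under the same settings, and 0.14 to 0.25. Against NC, the channel median of 0.09 was 0.018 with no filter, 0.056 with a pseudocount of 1, 0.014 with a floor of 1 TPM, −0.11 under median-ratio and under quantile scaling, 0.029 without mitochondrial genes and 0.033 with array weights, and 0.018 to 0.11 without 1 sample. The median of all genes, 0.21, was 0.075 with no filter, 0.00799 under median-ratio scaling and 0.012 under quantile scaling, and 0.15 to 0.26. For Con against NC the channel median, −0.05, ranged from −0.092 (floor of 1 TPM) to −0.002 (no filter) over all settings, and that of all tested genes, 0.01, from −0.018 (quantile scaling) to 0.02.

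Among differences that were not called, median-ratio and quantile scaling turned the direction against Con of Cacnb1 (−0.14, −0.10), Cacng6 (−0.11, −0.068) and Kcnj11 (−0.20, −0.17) and that of Kcne4 against NC (−0.15, −0.16). Median-ratio scaling turned Scn4b (−0.039) and Clcn1 (−0.0703) against Con. Clcn1 also turned against Con without Dis sample 3 (−0.069) and against NC without Dis sample 2 (0.12), and Cacng1 turned for Con against NC without Con sample 1 (0.079). Leaving out 1 sample gave Clcn1 from −0.069 to 0.44 against Con and from −0.39 to 0.12 against NC, and Cacng1 from −0.26 to 0.079 for Con against NC. Direction changes that moved a value by less than its SE in the reported fit are not listed. An example is Kcnj2 against Con, at −0.12 and at most 0.013. Median-ratio and quantile scaling are built to remove the general shift of all genes. The cause of the other changes was not tested.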
